A study of Mus musculus with 10 samples.

Results

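Reactive glia acute-phase genes are a set of 10 mRNAs, Gfap, Vim, Nes, Cebpd, Cebpb, Serpina3n, A2m, Timp1, Lcn2 and Cd44, that were looked up by symbol in a table of 24736 genes. All 10 were present, and all 10 passed the low-count filter that left 18988 genes for testing. The RNA was that of whole eyeballs. All mice were Kunming, which is an outbred stock, female and 4 weeks old per the labels, and sample titles carry day 14. The natural-light group had 2 libraries (control A and B), and the group kept in a dark container under an 18 W blue lamp had 3 (blue A, B and C). No genetic change or drug is named for either group. Nothing in the labels ties the libraries of a group to separate animals, so each p-value reflects the spread among these libraries alone, which may be technical. Library totals ran from 87071487 to 107660103 estimated counts, and the share of Rn45s, the ribosomal RNA precursor, was 4.30% in control A, 14.1% in control B and between 8.69% and 14.4% in the blue libraries. Values are listed in the order A, B for the controls and A, B, C for blue light.

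Gliosis is the stress response of Muller glia, the radial support cells of the retina, and of the astrocytes of its nerve fibre layer. Cytokines of the interleukin-6 family, made in the retina after photoreceptor injury, act on these glia through the receptor chain gp130 and the transcription factor STAT3. The cells then add intermediate filaments, switch on C/EBP transcription factors and secrete proteins that the liver makes in the acute-phase response, such as protease inhibitors and lipocalin. Most of these genes are also used by other cells of the eye: vimentin by lens and connective tissue, CD44 by leukocytes and surface epithelium, and lipocalin-2 by neutrophils. An eyeball library averages over all of them, and in such bulk RNA fewer cells of a type and less RNA per cell cannot be told apart.

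Of the 10 genes, 6 rose under blue light: Lcn2, Gfap, Cebpd, Serpina3n, Timp1 and Cd44. Vim, Nes, Cebpb and A2m did not pass the test, which was the quasi-likelihood F-test of edgeR, with p-values adjusted over all tested genes by Benjamini-Hochberg and a threshold of 0.05. Of all tested genes 0.664% were called higher, against 6 of these 10. No member fell, with 0 at an unadjusted p under 0.05 in that direction and 0 calls in DESeq2, whereas 1.55% of all tested genes were called lower in edgeR. DESeq2 called 7 members higher, adding Vim, where 4.46% of all genes were called higher. At an unadjusted p under 0.05 in edgeR, 9 members were higher. Of the 18988 tested genes, 1334 were higher and 1760 lower at that level, which is the background for such counts in the lists below. The fold changes formed 2 sets, with 5 genes over 3-fold and 5 under 1.6-fold. The members' median log2 fold change (blue minus natural light) was 1.14, a 2.20-fold level, beside -0.0056 over all tested genes. In all 10 genes every blue library stood above both controls on the scale of CPM, read counts scaled to library size with TMM factors, as in 15.6% of all tested genes.

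The calls rested on few libraries: 0 of the 10 genes were called in edgeR without control A or without control B, with 7 and 8 of them at an unadjusted p under 0.05, and 2 (Gfap and Serpina3n) without blue C, against 4 without blue A or blue B. With the Rn45s share as a covariate 1 was called (Gfap), and with the microglia and macrophage level as a covariate 2 were called (Gfap and Cebpd). The fold changes of the 5 genes not called with Rn45s stayed close to their values without it: Lcn2 was at 4.64, Cebpd at 2.59, Serpina3n at 2.39, Timp1 at 1.59 and Cd44 at 0.58 on the log2 scale. With the microglia and macrophage level, those not called were Lcn2 at 4.74, Serpina3n at 2.24, Timp1 at 1.47 and Cd44 at 0.50.

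**Figure D1:**
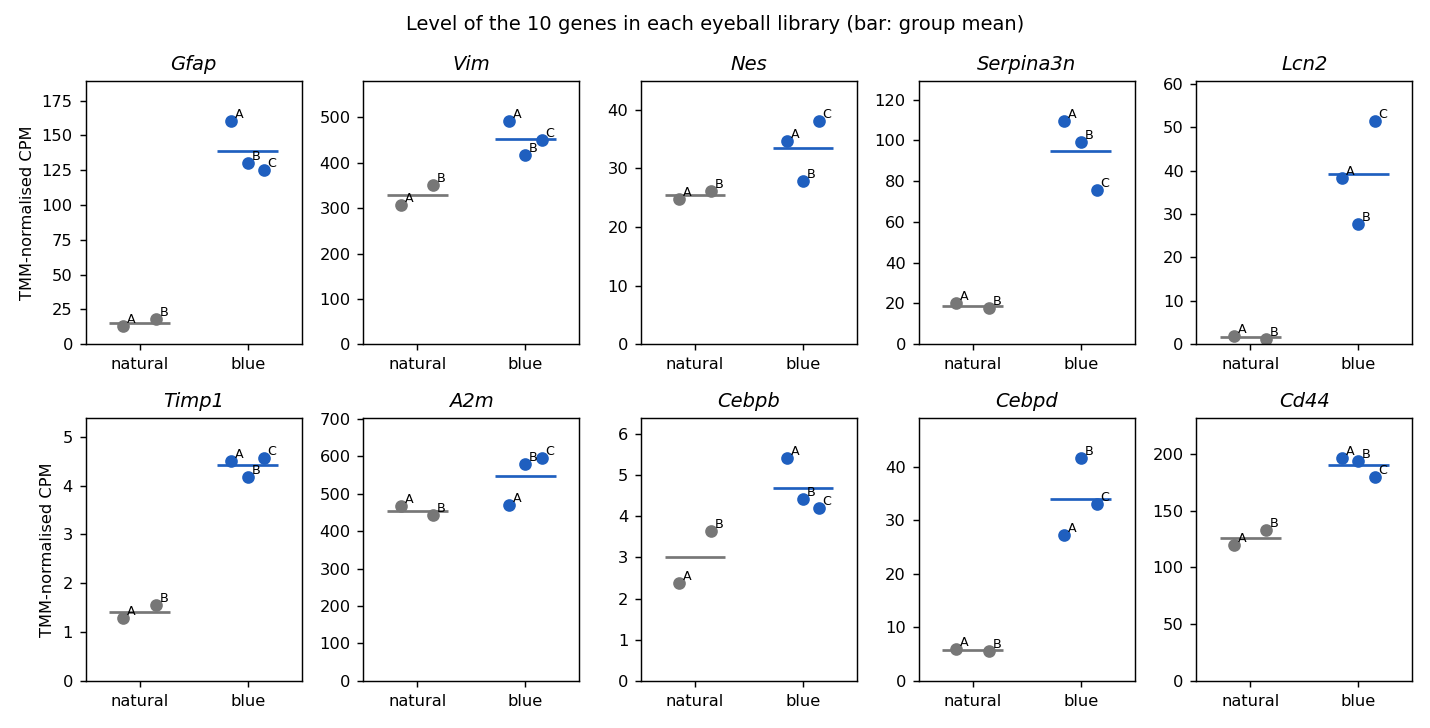
Each panel plots 1 gene, with TMM-normalised CPM on a linear axis from 0, points for the 2 natural-light and 3 blue-light libraries labelled by letter, and a bar at each group mean. Lcn2, Gfap, Cebpd, Serpina3n and Timp1 show wide gaps between the groups, whereas A2m and Nes have lowest blue libraries only 1.01 and 1.06 times the highest control.

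The first members are the intermediate filaments that fill the processes of reactive glia. Gfap, the glial filament protein (chromosome 11, 102887336 to 102897200, mm10), stood at 12.8 and 18.1 CPM in the controls and at 160.2, 130.4 and 125 CPM under blue light. The lowest blue library was 6.93 times the highest control, so the groups lay far apart. Gfap rose by 3.17 in log2 terms (SE 0.20, adjusted p = 0.0118 in edgeR), an 8.98-fold change, and had rank 8 by p among the 18988 tested genes. The SE here restates the test, being the log2 fold change divided by the square root of its F statistic.

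Vim encodes vimentin, the filament that resting Muller glia, lens and mesenchymal cells already contain (chromosome 2, 13574311 to 13582826). It stood at 306 and 350.2 CPM in the controls and at 492, 418 and 451 CPM under blue light. The groups did not overlap, with group means of 328 ± 30.9 (SD, n = 2) and 454 ± 37.1 CPM (SD, n = 3). Its log2 fold change was 0.47 (SE 0.10) and missed the threshold in edgeR (adjusted p = 0.0985), but it passed in DESeq2 (adjusted p = 0.000444) and with the skeletal muscle level as a covariate (adjusted p = 0.0242 in edgeR).

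Nes encodes nestin, a filament of neural progenitors, reactive glia and vessel walls (chromosome 3, 87971093 to 87980451). Its values were 24.7 and 26.2 CPM in the controls and 34.7, 27.8 and 38.1 CPM under blue light. Blue B was close to the controls and the other blue libraries stood above it. The log2 fold change was 0.40 (SE 0.15, adjusted p = 0.264 in edgeR).

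The ratio of 2 genes within a library does not depend on how libraries are scaled, and it shows how unequally the filaments changed. The CPM ratio of Gfap to Vim was 0.0418 and 0.0516 in the controls and 0.326, 0.312 and 0.278 under blue light. The ratio was 6.55 times higher under blue light. The ratio of Gfap to Nes went from 0.519 and 0.690 to 4.62, 4.69 and 3.29. Gene lengths do not enter these ratios, so their size is not a ratio of molecules. Each of the 6 ratios computed between members set a gene that was called over one that was not. The groups did not overlap for any of these ratios, which largely restates the fold changes of the genes and adds no separate evidence. The exact 2-sided permutation test gave p = 0.2 (0.2 after adjustment) for each. That is the smallest value this form of the test, which doubles the p of a single direction, can give for 3 libraries against 2.

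**Figure D2:**
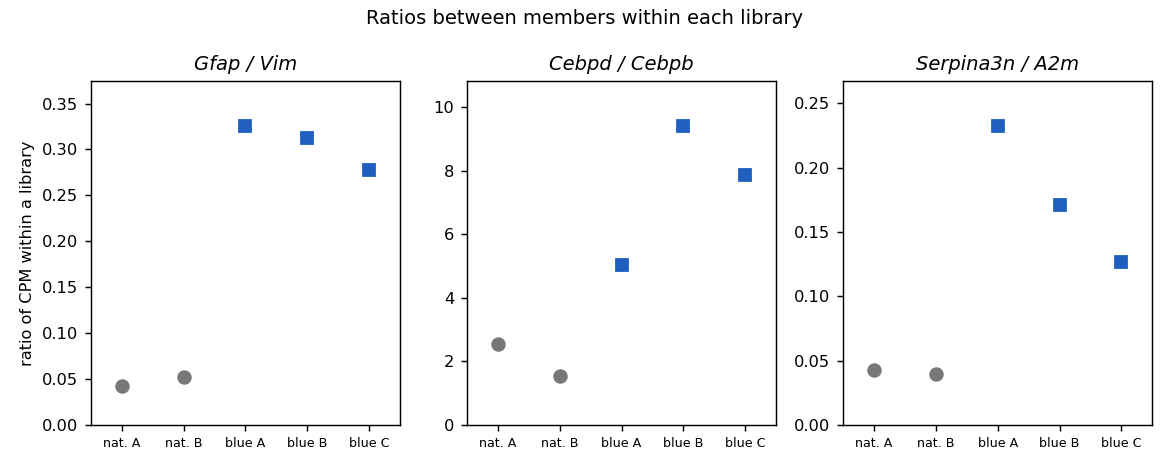
Ratio of the CPM of 2 members within each library (linear axis from 0; grey circles natural light, blue squares blue light), for Gfap over Vim, Cebpd over Cebpb and Serpina3n over A2m. In each panel the 3 blue libraries stand above both controls, with Gfap over Vim at 0.278 or more against 0.0516 or less.

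The C/EBP factors are leucine-zipper proteins that drive acute-phase genes in liver and glia. Cebpd, which STAT3 is known to activate (chromosome 16, 15887286 to 15889545), was at 6.03 and 5.56 CPM in the controls and at 27.2, 41.7 and 33.0 CPM under blue light. Its highest library was blue B, which led in none of the other 9 members. Cebpd rose by 2.55 (SE 0.21, adjusted p = 0.0137 in edgeR), 5.86-fold. Its annotated span shares 322 bases with Spidr, a DNA repair gene, which stood at 8.53 and 9.53 CPM in the controls and at 13.9, 17.9 and 15.2 CPM in the blue libraries (log2 fold change 0.80, SE 0.15, adjusted p = 0.0630 in edgeR). Strand use in counting is not stated, so reads of the pair could be shared. With both genes summed the log2 fold change was 1.74 and still passed.

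Cebpb, the sister factor on chromosome 2 (167688915 to 167690432), was at 2.38 and 3.65 CPM in the controls and at 5.41, 4.42 and 4.20 CPM under blue light. The controls differed from each other 1.53-fold, about as much as the group means differed (1.55-fold). The log2 fold change was 0.64 (SE 0.25, adjusted p = 0.298 in edgeR). Within a library, the CPM ratio of Cebpd to Cebpb was 2.53 and 1.53 in the controls and 5.03, 9.42 and 7.86 under blue light. In the rest of the C/EBP family 0 of 4 tested genes passed, with 1 below an unadjusted p of 0.05 in edgeR and 0 called by DESeq2. Of these, Cebpg, a partner that lacks an activating domain, had a log2 fold change of 0.20 (SE 0.077) and Cebpa, the factor of fat, liver and myeloid cells, 0.58 (SE 0.27).

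Secreted protease inhibitors are a main product of the acute phase. Serpina3n, an inhibitor of granzyme B and leukocyte proteases (chromosome 12, 104406646 to 104414334), was at 20.0 and 17.7 CPM in the controls. In blue A, B and C it stood at 109, 99.1 and 75.6 CPM, with the lowest of them 3.78 times the highest control. Serpina3n rose by 2.33 (SE 0.18, adjusted p = 0.0137 in edgeR), 5.02-fold. It belongs to a cluster of near-identical copies between which reads may be split. Of 10 Serpina3 paralogues 5 were tested and 0 passed, with 0 below an unadjusted p of 0.05 in edgeR and 0 called by DESeq2. The paralogue Serpina3h was at 50.1 and 52.0 CPM in the controls and at 49.9, 38.5 and 42.3 CPM in the blue libraries, below rather than above the controls, and missed the threshold (log2 fold change -0.23, adjusted p = 0.432 in edgeR).

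A2m encodes alpha-2-macroglobulin, a large trap for proteases that is a leading acute-phase protein of the rat more than of the mouse (chromosome 6, 121636165 to 121679238). It stood at 466 and 444 CPM in the controls and at 471, 579 and 596 CPM under blue light. Blue A lay with the controls, and the others stood above them. The log2 fold change was 0.27 (SE 0.12, adjusted p = 0.337 in edgeR), the smallest of the 10. The ratio of Serpina3n to A2m went from 0.0429 and 0.0399 in the controls to 0.233, 0.171 and 0.127 under blue light. Of 7 genes listed as its relatives and receptor 4 were tested, and 0 passed, with 0 below an unadjusted p of 0.05 in edgeR and 0 called by DESeq2. The clearance receptor Lrp1 had a log2 fold change of 0.12 (SE 0.079).

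Timp1 encodes a secreted inhibitor of matrix metalloproteinases (chromosome X, 20870166 to 20874737). It was at 1.28 and 1.56 CPM in the controls and at 4.51, 4.17 and 4.57 CPM under blue light, with raw values of 126 to 456 estimated counts. The blue libraries differed from each other by 1.10-fold, less than the controls (1.21-fold). Timp1 rose by 1.64 (SE 0.20, adjusted p = 0.0245 in edgeR), 3.11-fold. All 4572 bases of its span lie inside that of Syn1, the synaptic vesicle gene synapsin 1 (20860511 to 20920918). Syn1 stood at 69.6 and 57.7 CPM in the controls and at 63.1, 67.9 and 60.4 CPM in the blue libraries, so the groups overlapped. Summed with Syn1, whose counts are far larger, the log2 fold change was 0.068 (adjusted p = 0.807 in edgeR). With 1 library left out, Timp1 alone had a log2 fold change of 1.53 to 1.78 and an adjusted p of 0.0529 (without blue A) to 0.163 (without control A) in edgeR. Among 15 tested TIMP and metalloproteinase genes other than Timp1, 0 passed, with 2 higher and 1 lower below an unadjusted p of 0.05 in edgeR and 1 called by DESeq2. Adamts1, a protease of versican, had a log2 fold change of 0.56 (SE 0.15, adjusted p = 0.152 in edgeR).

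Lcn2 encodes lipocalin-2, which binds bacterial iron carriers and is released by reactive astrocytes and neutrophils (chromosome 2, 32384637 to 32387739). It was at 1.96 and 1.20 CPM in the controls and at 38.3, 27.7 and 51.4 CPM under blue light. Both groups were uneven, by 1.63-fold between the controls and 1.86-fold between the blue libraries, yet the lowest blue library was 14.2 times the highest control. Lcn2 rose by 4.62 (SE 0.38, adjusted p = 0.0140 in edgeR), a 24.6-fold change and the largest of the 10. The controls held 218 and 97 estimated counts. Of 9 listed lipocalins and receptors 6 were tested and 0 passed, with 2 below an unadjusted p of 0.05 in edgeR and 1 called by DESeq2. Rbp4, the retinol carrier, had a log2 fold change of 1.57 (SE 0.41, adjusted p = 0.142 in edgeR), and Ptgds, the prostaglandin D synthase of the lipocalin fold, 0.27 (SE 0.10, adjusted p = 0.271 in edgeR).

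Cd44 encodes the hyaluronan receptor of Muller cell microvilli, leukocytes and epithelia (chromosome 2, 102811141 to 102901669). It was at 119 and 133 CPM in the controls and at 196, 193 and 180.0 CPM under blue light. The blue libraries agreed closely, with a coefficient of variation of 4.61%, the smallest of the 10 genes. Cd44 rose by 0.59 (SE 0.083, adjusted p = 0.0309 in edgeR), 1.51-fold. With 1 library left out, its adjusted p was between 0.0508 (without blue A) and 0.197 (without control A) in edgeR. Of 12 ligands and partners 0 passed, with 1 higher and 1 lower below an unadjusted p of 0.05 in edgeR and 1 called by DESeq2. Moesin (Msn), which ties CD44 to actin, was at 87.2 and 102 CPM in the controls and at 144, 125 and 137 CPM in the blue libraries (log2 fold change 0.51, SE 0.11, adjusted p = 0.0835 in edgeR).

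**Figure D3:**
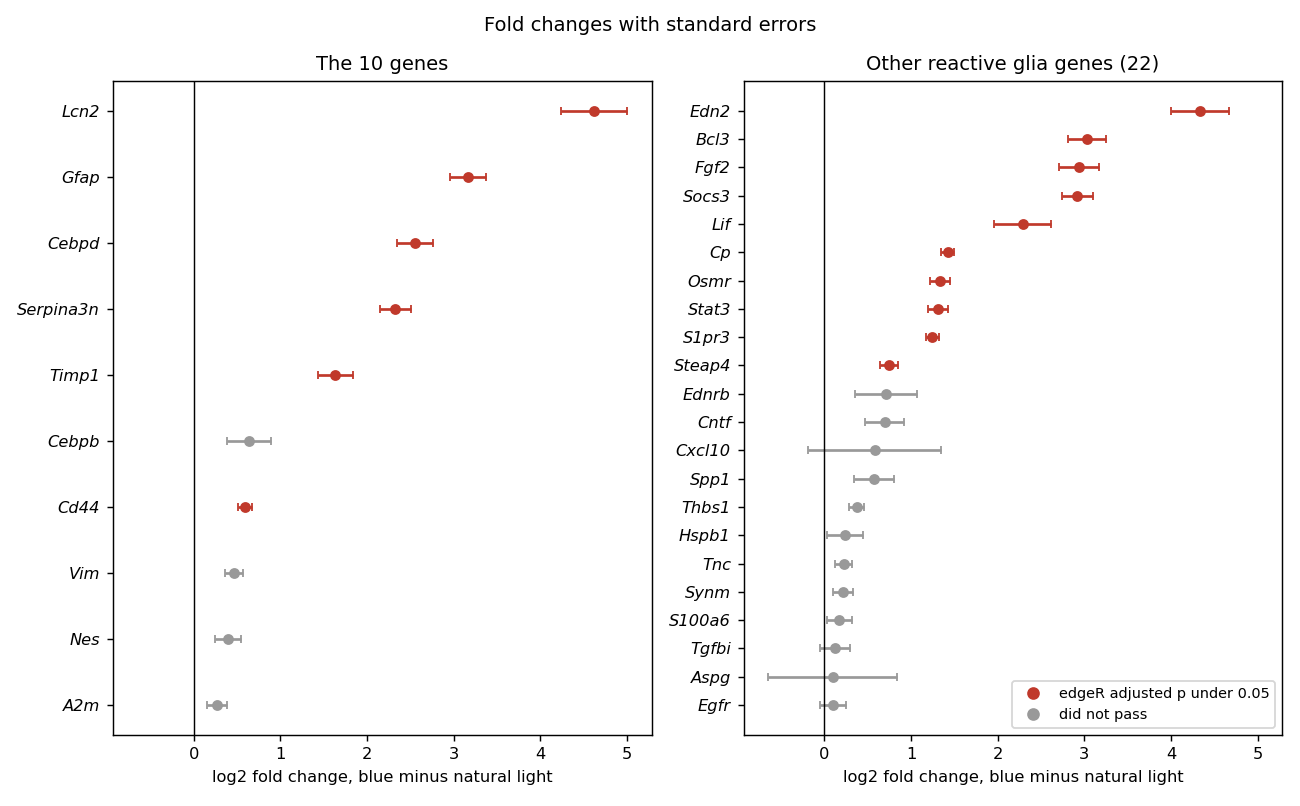
Log2 fold change (blue minus natural light) with its standard error for the 10 genes (left) and 22 other reactive glia genes (right), coloured by whether the edgeR adjusted p was under 0.05. Lcn2 at 4.62 and Gfap at 3.17 lead the left panel, and every point on both sides is at or above 0.094.

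Among themselves the members did not peak in the same library. Blue A held the highest value of 5 genes, blue C that of 4 and blue B that of 1, Cebpd. Of the controls, A was the higher for 4 genes and B for 6. The spread between blue libraries ran from a coefficient of variation of 4.61% for Cd44 to 30.4% for Lcn2.

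Sequence just before the start site was compared because 6 of the members rose together. RefSeq promoter windows (GRCm38.p6) were found for 8 of the 10 genes, and A2m and Cebpd had no entry. Both strands of the 250 bases before the start were searched for TTCNNNGAA (STAT), TTGCNNAA (C/EBP), TGANTCA (AP-1) and the NF-kB consensus by name. Over 32851 promoters of the same length these were present in 7.02%, 9.56%, 6.75% and 3.90%. In the 8 genes, a C/EBP match was found for Lcn2 and an NF-kB match for Vim, and the STAT and AP-1 letters were not found. In Gfap the letters TTCCAGGAA, a STAT match, begin 2 bases before the start and run past it, so only their first 2 lie in the printed window. With the 50 bases after the start included, the STAT letters were present in 8.30% of all promoters. The windows of the gene with the largest change, of the other gene with a match and of Gfap are shown 5′ to 3′ on the gene's strand, with letters matched within the window in capitals. They lie at chr2:32387740-32387989 (minus), chr2:13574061-13574310 (plus) and chr11:102897201-102897450 (minus). A match is a description of the letters only.
Lcn2: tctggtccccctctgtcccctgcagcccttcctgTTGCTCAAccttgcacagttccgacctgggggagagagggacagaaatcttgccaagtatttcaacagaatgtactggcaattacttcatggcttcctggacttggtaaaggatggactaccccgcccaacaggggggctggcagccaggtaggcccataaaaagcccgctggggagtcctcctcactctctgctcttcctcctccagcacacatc
Vim: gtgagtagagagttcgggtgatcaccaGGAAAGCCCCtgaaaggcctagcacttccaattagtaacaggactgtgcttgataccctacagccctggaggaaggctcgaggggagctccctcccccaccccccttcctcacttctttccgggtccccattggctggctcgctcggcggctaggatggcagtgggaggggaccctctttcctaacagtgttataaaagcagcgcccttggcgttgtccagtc
Gfap: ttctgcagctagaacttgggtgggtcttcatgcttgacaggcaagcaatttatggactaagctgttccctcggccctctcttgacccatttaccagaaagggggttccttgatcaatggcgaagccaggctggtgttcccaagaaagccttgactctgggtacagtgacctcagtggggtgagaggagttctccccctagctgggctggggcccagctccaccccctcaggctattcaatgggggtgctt

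The C/EBP letters of Lcn2 are TTGCTCAA and begin 216 bases before its start. Lcn2, which rose 24.6-fold, and Vim, which did not pass the edgeR test, are thus the members whose windows hold a match. The windows of Serpina3n, Timp1 and Cd44, which rose, held none of the 4 motifs.

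Other genes of the reactive programme also rose. Of 22 listed companions 10 rose and 0 fell in edgeR. A further 2 were higher and 0 were lower below an unadjusted p of 0.05, DESeq2 called 12 higher and 0 lower, and their median log2 fold change was 0.70. The smallest p belonged to Cp, S1pr3, Socs3 and Bcl3. Cp encodes ceruloplasmin, a copper enzyme that oxidises iron, and stood at 195 and 182 CPM in the controls and at 489.7, 499.9 and 527 CPM under blue light. S1pr3, a receptor for sphingosine 1-phosphate, was at 21.0 and 21.8 CPM and at 50.1, 50.7 and 51.5 CPM, the tightest groups among these 4. Socs3, the feedback inhibitor that STAT3 induces, went from 5.98 and 6.37 CPM in the controls to 42.4, 56.6 and 41.1 CPM under blue light, and Bcl3, a nuclear IkB protein, from 2.44 and 3.76 to 23.5, 26.5 and 25.9 CPM. Both had wide gaps between the groups, like Gfap. Thbs1 (log2 fold change 0.37, adjusted p = 0.120 in edgeR) and Cntf (0.69, adjusted p = 0.213) were the genes with the smallest p that did not pass. The companions were chosen with earlier results of these data known, so their count is not independent evidence of a direction. In edgeR 2 of them were called when control A was left out, 2 when blue C was and 0 when control B was.

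Upstream of the members, 2 of 18 tested cytokines, receptors and kinases rose and 0 fell, with 9 higher and 0 lower below an unadjusted p of 0.05 in edgeR and 7 and 0 called by DESeq2. Both that rose, Lif and Osmr, are also among the 10 companions counted above, so the counts share these 2 genes. Lif, an interleukin-6 family cytokine, went from 0.943 and 1.31 CPM to 5.78, 6.81 and 3.88 CPM under blue light. Osmr, a receptor that pairs with gp130, went from 47.2 and 55.2 to 134, 137 and 116 CPM. The shared receptor chain Il6st was at 244 and 270.2 CPM in the controls and at 354, 361 and 328 CPM in the blue libraries, with an adjusted p of 0.0668 in edgeR. Il6 itself was the 1 listed gene that failed the low-count filter.

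Sets named for astrocyte subtypes gave 0 calls in edgeR. In the A1-type set of 12 genes, described after systemic inflammation, 5 had an unadjusted p under 0.05, DESeq2 called 4 higher, and the median log2 fold change was 0.55. In the A2-type set of 12 genes, described after ischaemia, 4 had an unadjusted p under 0.05, DESeq2 called 2 higher, and the median was 0.24. The complement component C3 of the first set was at 29.4 and 44.9 CPM in the controls and at 171, 84.6 and 124 CPM in the blue libraries (adjusted p = 0.0707 in edgeR). The endotoxin co-receptor Cd14 of the second was at 1.64 and 2.36 CPM and at 4.23, 4.14 and 3.76 CPM (adjusted p = 0.108 in edgeR). No test compared these medians with that of the 10 genes.

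Genes of the liver's own acute-phase proteins gave no calls. Of 22 listed genes 17 were tested and 0 passed, with 3 higher and 0 lower below an unadjusted p of 0.05 in edgeR and 2 called by DESeq2. Itih4 was at 0.207 and 0.358 CPM in the controls and at 3.63, 1.95 and 1.48 CPM under blue light (adjusted p = 0.0575 in edgeR). Serpina1a was listed at 0 in both controls and at 0.287, 0.261 and 0.165 CPM in the blue libraries. Albumin (Alb) did not exceed 0.177 CPM in any library.

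Among 12 other intermediate filament genes 1 rose and 0 fell in edgeR, and 1 in each direction was at an unadjusted p under 0.05 and also in DESeq2, and the median log2 fold change was 0.00091. The gene that rose was Prph, which encodes peripherin, a filament of neurons with long axons and not the photoreceptor protein of the gene Prph2. It was at 1.11 and 2.72 CPM in the controls and at 21.8, 31.1 and 33.3 CPM under blue light. Its log2 fold change of 3.92 (SE 0.45, adjusted p = 0.0217 in edgeR) was above that of Gfap. The nuclear lamin Lmnb1 had a log2 fold change of -0.37 (adjusted p = 0.142 in edgeR) and the neurofilament Nefm -0.18 (adjusted p = 0.387).

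Markers of the cells that could carry these genes were summed in each library. The 12 Muller glia markers summed to 3911 and 4017 CPM in the controls and to between 4705 and 5139 CPM in the blue libraries. Of the 12, 3 rose and 0 fell in edgeR, with 9 higher and 1 lower below an unadjusted p of 0.05. Those that rose were Slc1a3, the glial glutamate transporter, Clu, the secreted chaperone clusterin, and Crym, a thyroid hormone binding protein. Clu went from 688 and 654 CPM to 1440, 1193 and 1393 CPM under blue light, and Apoe, the lipid carrier, from 370.2 and 368 to 752, 544 and 624 CPM (adjusted p = 0.0594 in edgeR), so these abundant genes carried much of the higher sum. Glul and Rlbp1, enzymes or carriers of the resting cell, had log2 fold changes of -0.48 (adjusted p = 0.0537) and -0.077 (adjusted p = 0.699) in edgeR. The 7 retinal astrocyte markers summed to between 648 and 748 CPM in the controls and between 710 and 762 CPM in the blue libraries, and Pax2, the defining one, was between 0.396 and 0.861 CPM. The astrocyte sums overlapped between the groups, and those of Muller glia did not. Most of the astrocyte sum came from Gja1, Aldoc, Igf1 and Pdgfra, the last of which is also on the fibroblast list. Of the less abundant markers, Aldh1l1 and S100b had every blue library above both controls, and Pax2 did not. Without Clu and Apoe the Muller glia sums would overlap as well, but only with Glul kept in them. Glul, the largest of the 12, was at 1462 and 1603 CPM in the controls and at 1087, 1163 and 1056 CPM in the blue libraries. DESeq2 called 8 of the 12 higher and 1, Glul, lower. The median log2 fold change of the 12 Muller glia markers, which weights each gene alike, was 0.54. The part of a changed number of either glial cell in the members' values was not tested.

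Of 10 rod markers 9 fell and 0 rose in edgeR. The 10 rod genes summed to 25273 and 23848 CPM in the controls and to between 4610 and 8480 CPM in the blue libraries, lowest in blue A. The 10 members together held 961 and 1001 CPM in the controls and between 1526 and 1559 CPM in the blue libraries, most of it from Vim, A2m and Cd44. The part of a lower rod share in these values was not tested. Microglia and macrophage markers summed to 135 and 174 CPM in the controls and to between 198 and 301 CPM in the blue libraries, and with their level as a covariate Gfap and Cebpd were called, as given above.

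Neutrophils are a source of Lcn2. Their 10 markers, of which 7 passed the low-count filter, summed to 9.29 and 5.95 CPM in the controls and to 25.6, 9.93 and 8.77 CPM under blue light. S100a8 was at 0 in control A, blue B and blue C, and S100a9 was at 0.755 and 0.383 CPM in the controls and at 0.198, 0.0838 and 0.176 CPM in the blue libraries. The other tested markers mostly pointed up: 5 of the 7 had a log2 fold change above 0, the median was 0.72, and 0 passed in edgeR, with 1 in each direction below an unadjusted p of 0.05 and 1 called by DESeq2. That gene was Csf3r, the receptor for granulocyte colony-stimulating factor, at 2.19 and 1.45 CPM in the controls and at 8.60, 4.75 and 6.48 CPM under blue light (adjusted p = 0.0595 in edgeR). The part of neutrophils in the value of Lcn2 was not tested. Lens markers, which mark a vimentin-rich tissue, summed to 30572 and 30699 CPM in the controls and to between 30607 and 32017 CPM in the blue libraries. Fibroblast markers summed to 5921 and 6331 CPM against 4310 to 6608 CPM, so the groups overlapped. So did those of cornea (6009 and 7170 against 5873 to 7812 CPM) and retinal pigment epithelium (1762 and 1923 against 1887 to 2238 CPM). The largest parts of the pigment epithelium sum were Trpm1 and Ttr, of which Ttr is also on the liver list. Rpe65 was at 166 and 191 CPM in the controls and at 137, 206 and 154 CPM in the blue libraries. Endothelial and pericyte markers summed to 698 CPM in both controls and to between 769 and 837 CPM in the blue libraries. The part of vessel cells, which use Nes, was not tested. Adipocyte markers summed to 79.9 and 78.7 CPM in the controls and to between 81.0 and 105 CPM in the blue libraries, so these groups did not overlap either. Their median log2 fold change was 1.77, which rests on genes near the floor. Cidec was at 0 in both controls, and Adipoq and Cfd did not exceed 0.371 CPM in them. Most of the sum was Car3, at 59.3 and 55.3 CPM in the controls and at 68.8, 58.4 and 71.1 CPM in the blue libraries, so its groups overlapped. Of the 10 markers 1 rose in edgeR, Cfd, which encodes the complement protease adipsin (2.55, adjusted p = 0.0468), and DESeq2 called 3 higher. The part of fat in the members' values was not tested.

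Skeletal muscle markers divided the libraries across the groups. The 10 markers summed to 4556 CPM in control B and 4629 CPM in blue A, and to between 2155 and 2255 CPM in control A, blue B and blue C. Libraries of like muscle content were therefore set against each other, a comparison chosen after the values were seen. For Gfap, blue A was 8.87 times control B, and blue B and C were 10.2 and 9.77 times control A. For Lcn2 the ratios were 31.9, 14.2 and 26.3, for Serpina3n 6.18, 4.96 and 3.78, and for Cebpd 4.89, 6.91 and 5.47. Timp1 gave 2.90, 3.25 and 3.56, and Cd44 1.48, 1.62 and 1.51. The ratios were 1.36 to 1.47 for Vim, 1.12 to 1.54 for Nes, 1.06 to 1.28 for A2m and 1.48 to 1.86 for Cebpb. Since every blue library stood above both controls for all 10 genes, only the size of these ratios carries information, not their direction.

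**Figure D4:**
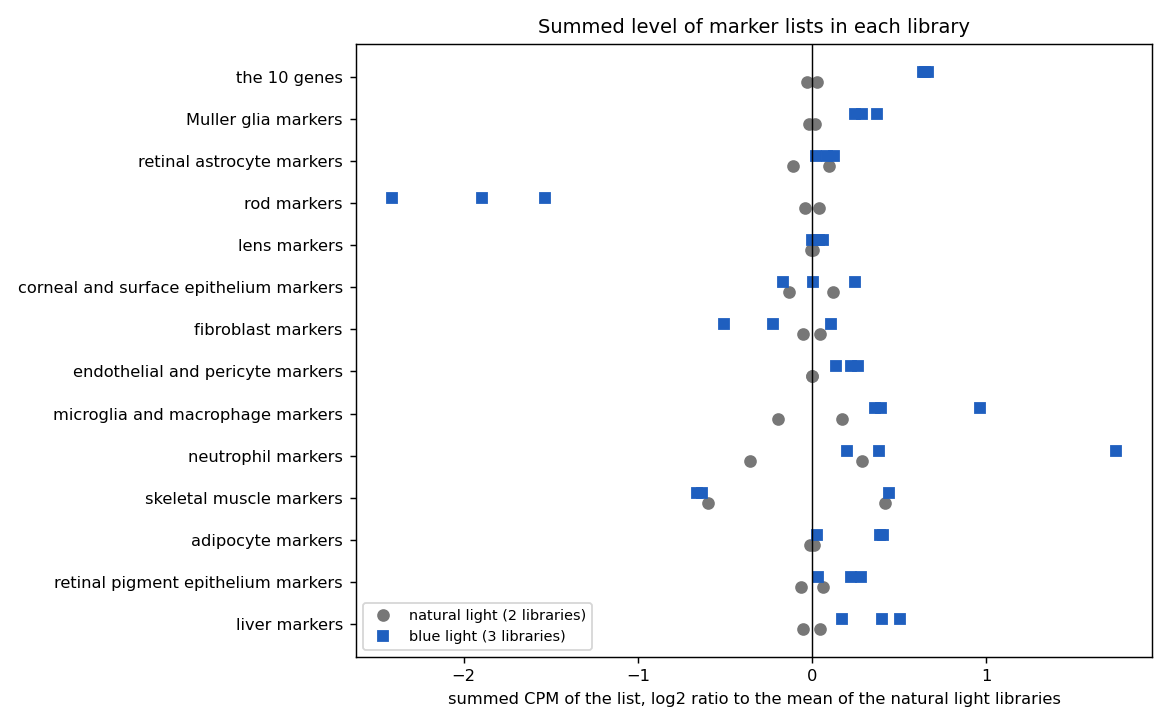
Summed CPM of each marker list and of the 10 genes in each library, as a log2 ratio to the mean of the 2 natural-light libraries (grey circles natural light, blue squares blue light). The 10 genes lie to the right in all 3 blue libraries. So do the lists for Muller glia, retinal astrocytes, microglia and macrophages, endothelium, neutrophils, adipocytes, retinal pigment epithelium and liver. For retinal astrocytes, neutrophils and retinal pigment epithelium the groups still overlap. The rod list lies far to the left, and the muscle list splits both groups. The liver sum is nearly all Ttr, at 422 to 619 CPM of sums from 424 to 622 CPM.

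Genes outside every list that ran most like the members' median were found among genes of mean CPM of at least 5. Symbols of the Gm or Rik form were left out. The measure was the root mean square difference, over the 5 libraries, between a gene's centred log2 CPM and that median. The median falls between the larger and the smaller fold changes of the members, so it is the profile of no single member. The genes found were Hist1h2al (0.086), Tmem120b (0.089), Vcam1 (0.10), Evi2a (0.11) and Pdpn (0.11). Vcam1 is a leukocyte adhesion molecule and Pdpn encodes the mucin-like protein podoplanin. Pdpn was at 85.9 and 100.0 CPM in the controls and at 184, 151 and 181 CPM under blue light. The members themselves differed from their own median by 0.14 (Timp1) to 1.59 (Lcn2).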

How the data were processed

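The 5 eyeball mRNA libraries were compared, 2 from natural and 3 from blue light. Per gene symbol, the authors deposited whole numbers that were treated as estimated counts without normalisation, since their low values are uneven. Tools listed in the submitters' processing notes, with no roles, are HISAT2, StringTie, limma, DESeq2 and bcl2fastq 2.0, and the build is mm10. Per the labels' protocols, ribosomal RNA was removed from Trizol-extracted RNA and fragments were primed at random. Whether counting used strand is not stated. The miRNA table was not used here. Counts were fitted over all genes with edgeR 4.0.16 in R 4.3.3 (filterByExpr, TMM, quasi-likelihood test, Benjamini-Hochberg adjustment). DESeq2 1.42.0, limma-voom (limma 3.58.1), other scalings, filters, covariates, summed overlapping genes, the letter as a block and leaving out each library were alternatives. No low value was given a counting interval, since 1 fragment may add more than 1 unit.

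The members and lists were chosen with earlier results of these data known. Text names the 10 members, genes overlapping them, Rn45s, from each companion or family list up to 4 that passed and 2 that did not by smallest p, the first 3 markers of marker lists, and the 5 genes most like the members. Outside this rule, Il6 and Prph2 are named. Clu, Apoe, Crym, Csf3r, Car3, Ltf, Gja1, Aldoc, Igf1, Pdgfra and Trpm1 were chosen after their values were seen. Exon lengths and protein sequences were not analysed here, so levels are not compared between genes. Symbols were matched to RefSeq positions on GRCm38.p6, the assembly called mm10. On simulated counts with 200 changed genes among 18673 tested, 43.4% of 2-fold and 81.8% of 4-fold changes were recovered, and 14.5% of calls were false, more than the threshold of 0.05 allows for.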

Additional observations from a re-analysis of the deposited data

How the results depend on the processing

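All 188 member values from 19 alternatives kept their direction. Every blue library stood above both controls for all 10 genes, so leaving out 1 library could hardly have reversed a direction. The alternative that also required a minimum fold change reused the values of the main fit, so its directions could not differ. The count of members called higher was 0 with the letter as a replicate block, 1 with the Rn45s share and 2 with the microglia and macrophage level as a covariate, and 0 to 4 with 1 library left out, against 6; the count of companions called was 0, 5, 5 and 0 to 8, against 10. All genes called numbered 421, and 1729 with DESeq2, 274 with library totals as the only scaling (124 higher and 150 lower, against 126 and 295), 198 when a log2 fold change of 1 or more in size was also required, 834 with the muscle level, 14 with the Rn45s share, 37 with the microglia and macrophage level and 0 in edgeR with the replicate block (1455 at an unadjusted p under 0.05, among them 7 members and 12 companions). Leaving out 1 library gave 0 to 311, the 0 without control B (2872 at an unadjusted p under 0.05); the fits without 1 control assume that the lone library varies like the blue ones. The cause of these shifts was not tested. Same-letter libraries did not deviate together (correlations of -0.30 and -0.25 across genes), and the letters pair only 2 libraries. With a mean CPM of at least 5, Timp1 and Cebpb were not tested. Levels per length and the protein comparison were not run. The precision differed between genes: Cebpb had a standard error of 0.25 and was not called, and Cd44, with a similar fold change, had 0.083.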

Other observations

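Marker genes gave 2 further changes. Crym, on the Muller glia list, was at 9.51 and 8.06 CPM in the controls and at 50.7, 37.5 and 53.2 CPM in blue A, B and C, and rose by 2.42 on the log2 scale (adjusted p = 0.0137 in edgeR). Crym was singled out after its value was seen. Aldh1l1, a folate enzyme on the retinal astrocyte list, was at 10.3 and 11.8 CPM in the controls and at 27.2, 23.2 and 28.4 CPM in the blue libraries, and rose by 1.25 (adjusted p = 0.0191 in edgeR). Of the 7 genes on that list 1 rose, Aldh1l1, and 0 fell in edgeR. Their median log2 fold change was 0.056, so Aldh1l1 does not stand for the list.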
